A study of Homo sapiens with 2 samples.

Results

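The L1 family and the contactins are 10 genes for cell adhesion molecules of the nervous system. All of them had at least 1 OTX2 binding peak in or near the gene. In the same kind of window, 90.8% of all protein-coding genes had a peak, and 97.8% of those of at least 100 kb. The members were taken as 4 L1 family genes (L1CAM, CHL1, NFASC and NRCAM) and 6 contactins (CNTN1 to CNTN6), of 19881 protein-coding genes with a recorded position in GRCh38. A peak was assigned to a gene when at least 1 base of it overlapped the gene record extended by 30 kb on each side. Of the 137412 peaks in the list, 243 met this rule for at least 1 of the 10 genes.

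OTX2 binding was measured by chromatin immunoprecipitation followed by sequencing (ChIP-Seq), in which crosslinked chromatin is sheared, pulled down with an antibody against the protein and sequenced. The cells were tumorspheres of D283, an established human medulloblastoma cell line, grown in low-attachment culture with EGF and bFGF, without treatment and with OTX2 expressed. The OTX2 ChIP library was made with an OTX2 antibody and the input library without one, and both came from the same cell line and culture. There was 1 library of each kind, with 61259377 ChIP and 22521186 input fragments after duplicate removal, so no value below has a replicate and no difference was tested.

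L1 family proteins cross the membrane, carry immunoglobulin and fibronectin type III domains outside the cell and bind ankyrin inside it, which ties them to the spectrin and actin skeleton. Contactins have similar outer domains, but are held in the membrane by a lipid anchor and signal through partners such as contactin-associated proteins and receptor phosphatases. Members of both groups guide growing axons and assemble the contacts between axons and myelinating glia. OTX2 is a homeobox transcription factor of the developing brain and cerebellum that is expressed in many medulloblastomas.

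The promoters under a peak are shown first, because they are where a peak and a main start coincide. RefSeq promoter sequences (250 bases before to 50 after a start, GRCh38.p14) were matched for all 10 genes, giving 19 promoters, and a peak overlapped 3 of them, against 38.5% of the 21484 promoters of protein-coding genes. These 3 lay at the main starts of NFASC, CNTN4 and CNTN5, and in each the peak covered the whole promoter. L1CAM and CNTN1 were represented among the 19 only by alternative starts far from the main one. The nearest promoters of NRCAM and CNTN6 belonged to starts 281 and 366 bp from the 5′ end of the gene record. A weak peak at chr12:40692065-40692357 reached into the 250 bases before the main CNTN1 start at 40692439, and 3 of 19 does not count it. The bases before the first annotated start are printed 5′ to 3′ on the strand of the gene, from chr1:204828402-204828650 for NFASC, chr3:2098616-2098812 for CNTN4 and chr11:99020699-99020948 for CNTN5, each on the plus strand. Capitals mark the bases within 10 of the peak summit, the position of highest coverage. The CNTN4 summit lay upstream of the printed stretch, which therefore has no capitals.
NFASC: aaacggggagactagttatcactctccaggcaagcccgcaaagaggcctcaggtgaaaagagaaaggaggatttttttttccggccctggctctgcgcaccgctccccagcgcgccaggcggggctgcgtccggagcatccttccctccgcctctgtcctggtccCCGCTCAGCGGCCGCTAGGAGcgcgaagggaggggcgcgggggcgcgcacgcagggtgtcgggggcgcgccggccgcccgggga
CNTN4: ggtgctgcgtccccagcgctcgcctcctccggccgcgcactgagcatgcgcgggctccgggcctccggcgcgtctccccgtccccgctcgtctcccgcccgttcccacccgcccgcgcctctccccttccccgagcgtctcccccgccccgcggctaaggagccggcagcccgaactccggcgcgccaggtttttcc
CNTN5: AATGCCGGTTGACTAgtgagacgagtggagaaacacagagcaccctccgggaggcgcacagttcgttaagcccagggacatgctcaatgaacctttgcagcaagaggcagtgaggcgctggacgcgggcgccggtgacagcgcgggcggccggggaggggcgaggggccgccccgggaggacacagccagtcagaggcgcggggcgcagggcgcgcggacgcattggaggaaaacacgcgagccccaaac

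These 3 promoters were rich in G and C, with a GC content of 70.7% for NFASC, 77.3% for CNTN4 and 66.0% for CNTN5, against a median of 62.7% over all promoters of protein-coding genes and 64.0% over those overlapped by a peak. The promoters of these genes without a peak ranged from 31.3% in CHL1 to 80.3% in CNTN3, so a high GC content was not particular to those under a peak. None of the 3 promoters under a peak held TAATCC or TAATCT, the letters searched as OTX2 motifs on both strands. Either motif was present in 10.6% of all promoters of protein-coding genes, in 12.1% of those overlapped by a peak and in 15.9% of those with a summit inside. Of the 19 promoters of these genes, 2 held a motif, and both were promoters of alternative starts. Each had TAATCT, read as AGATTA on the strand of the gene and shown in capitals, in NRCAM at chr7:108328656-108328776 on the minus strand and in CNTN4 at chr3:2891970-2892214 on the plus strand.
NRCAM: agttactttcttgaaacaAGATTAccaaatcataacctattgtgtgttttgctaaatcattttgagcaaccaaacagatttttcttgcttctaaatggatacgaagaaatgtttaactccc
CNTN4, alternative start: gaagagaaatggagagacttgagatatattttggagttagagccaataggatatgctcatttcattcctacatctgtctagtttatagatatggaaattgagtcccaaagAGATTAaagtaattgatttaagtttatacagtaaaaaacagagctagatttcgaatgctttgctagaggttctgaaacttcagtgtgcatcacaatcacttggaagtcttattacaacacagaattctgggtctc

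Neither of these promoters was overlapped by a peak. The summit nearest to the NRCAM start lay 1434 bp downstream of it, in a peak with a fold enrichment of 23.2. The summit nearest to the CNTN4 alternative start lay 7077 bp upstream of it, with a fold enrichment of 7.55. A match of letters describes the sequence and does not show that OTX2 binds there.

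Counted per length, the 10 genes together had about as many peaks as other genes. L1CAM, CHL1 and NRCAM of the L1 family, and CNTN5 and CNTN6 of the contactins, lay below the median gene. The 10 windows covered 4.68 Mb after merging and held 52.0 peaks per Mb, with an exact 95% Poisson interval of 45.6 to 58.9 that covers counting error only. The median over the 10 genes was 49.9 peaks per Mb, against 51.0 over all protein-coding genes (quartiles 26.1 and 81.9) and 54.6 over those of at least 100 kb. The contactins had 201 peaks, or 53.8 per Mb (interval 46.6 to 61.8), with a median over genes of 58.7. The L1 family had 46 peaks, or 46.9 per Mb, with a median over genes of 34.6, and 4 peaks were counted in both groups. NFASC held 22 of these 46 peaks, and the other L1 family genes together had 24, or 33.0 per Mb. Having a peak was itself common, since 90.8% of all protein-coding genes and 97.8% of those of at least 100 kb had one in the same kind of window. Of the 10 genes, 8 were at least 100 kb long, and their median length was 310 kb, against 27.6 kb over all genes.

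The genes differed among themselves in peak density. CNTN2 was highest with 105 peaks per Mb, followed by NFASC with 86.6 and CNTN4 with 68.7. The CNTN2 value rests on 10 peaks, 4 of them shared with the window of NFASC. Without those it was 62.9 (Poisson interval 23.1 to 137). That value still divides by the whole CNTN2 window, including the stretch shared with NFASC, and the NFASC value keeps the shared peaks. It therefore does not rank CNTN2 against NFASC or CNTN4. CNTN1 and CNTN3 followed with 59.1 and 58.2 peaks per Mb. The lower genes were CNTN5 with 41.5, CHL1 with 36.7, CNTN6 with 35.0, NRCAM with 32.5 and L1CAM with 23.6. The Poisson intervals of neighbours in this order overlapped in every case, so the order between neighbours was not resolved at these counts. L1CAM and NRCAM lay on the chromosomes with the fewest peaks among these genes, 20.0 per Mb on chromosome X and 27.3 on chromosome 7. The other genes lay on chromosomes with 52.2 to 56.3 peaks per Mb. The Poisson interval of each gene included the value of its chromosome, except for CNTN4 (53.5 to 86.8, against 52.2 on chromosome 3). The intervals of L1CAM (2.86 to 85.3, from 2 peaks) and NRCAM (16.8 to 56.8) therefore do not set these genes apart. The number of copies of each chromosome in D283 was not analysed here, and its part in these densities was not tested.

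**Figure D1:**
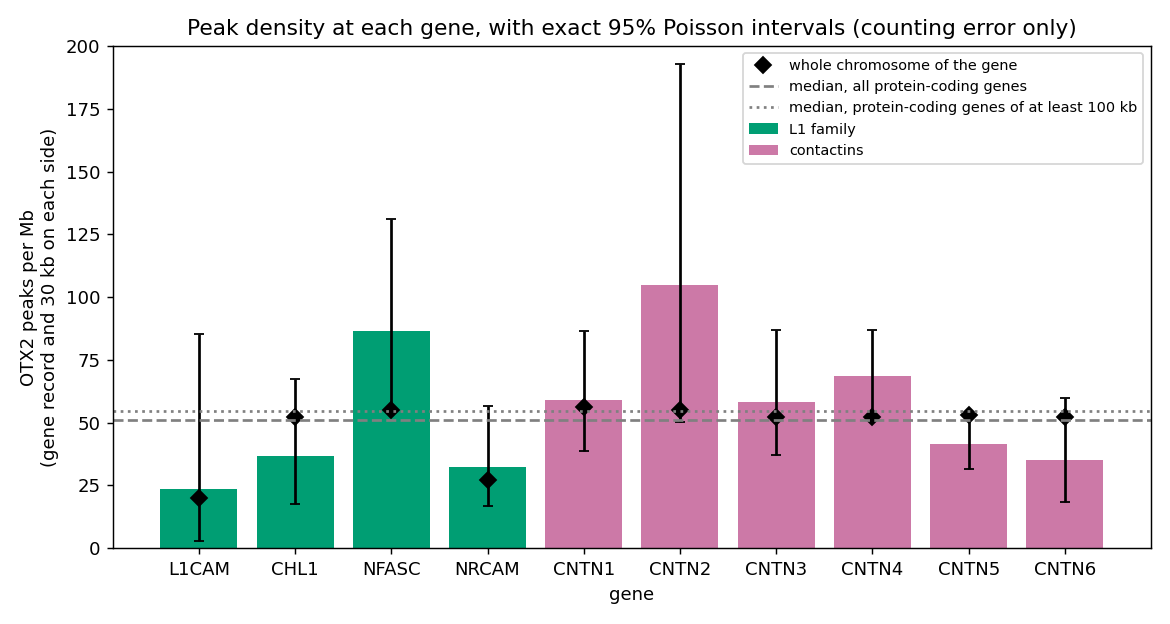
OTX2 peaks per Mb over each gene record and 30 kb on each side, as bars for the L1 family and the contactins, with exact 95% Poisson intervals. Diamonds give the whole chromosome and lines the medians over protein-coding genes, and only CNTN2, NFASC, CNTN4, CNTN1 and CNTN3 stand above both medians.

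Single peaks are described by the number of ChIP fragments over the summit, obtained from the deposited pileup, and by fold enrichment, the ratio of pileup to the local input level with 1 added to each. The 243 peaks had a median height of 56.0 fragments, against 53.0 over the whole list, and their median fold enrichment was 6.74, against 6.10. A fold enrichment of at least 10 was reached by 29.6% of them and 26.4% of all peaks, and one of at least 20 by 8.23% and 6.72%. The local input sat at its lowest level, 3.99 in pileup units, for 24.3% of the peaks and 26.5% of the whole list. A fold at this floor rests on the genome-wide input level and not on a local one.

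**Figure D2:**
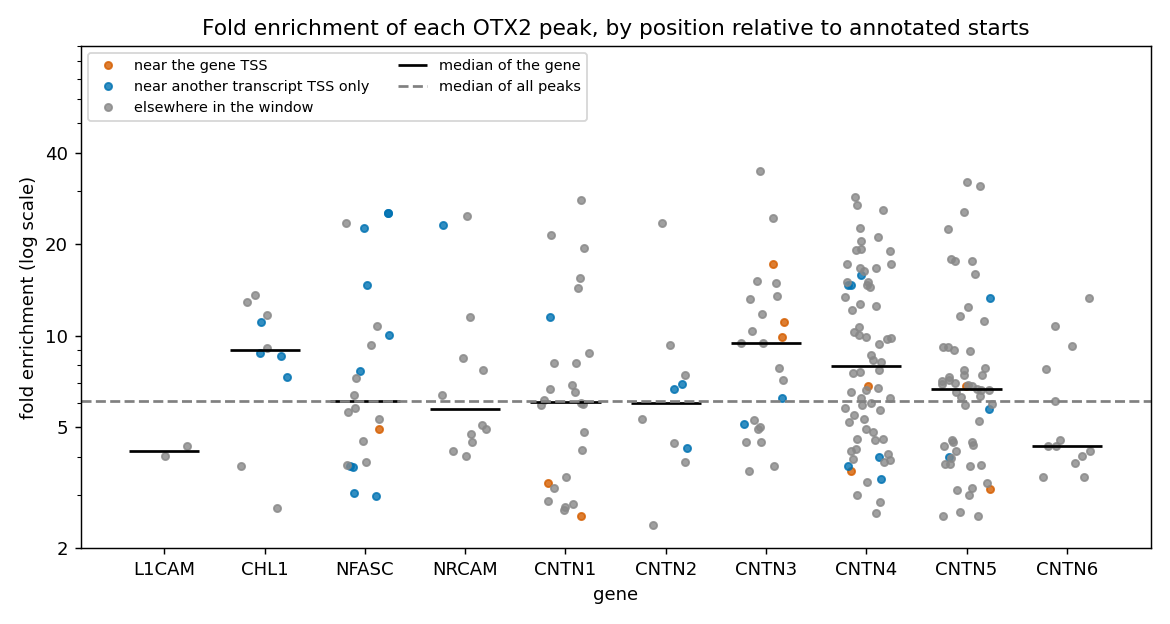
Fold enrichment of each peak on a log scale by gene, coloured by whether the peak lay near the gene TSS, near another transcript TSS only, or elsewhere, with the median of each gene and of all peaks. CNTN3 and CHL1 have the highest medians, 9.46 and 8.96, and L1CAM and CNTN6 the lowest, 4.18 and 4.33.

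Binding near the start was read in a window reaching 5 kb before and 2 kb past the transcription start site (TSS). A peak lay near the main TSS, the 5′ end of the gene record, in 5 of the 10 genes (NFASC, CNTN1, CNTN3, CNTN4 and CNTN5), against 57.2% of all protein-coding genes. Counting every annotated transcript start, 8 of the 10 had one, all but L1CAM and CNTN6, against 66.6% of all genes. Among genes of at least 100 kb the figures were 7 of 8 members and 82.9% of such genes. CHL1, NRCAM and CNTN2 had a peak near another start but none near the main one, which is 3 of 10, against 9.47% of all genes. Of the long members this held for 2 of 8, against 19.2% of all long genes. The members had a median of 14.5 distinct starts, against 5 over all genes and 9 over long genes, and more starts give more windows in which a peak can fall.

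The 10 peaks near a main TSS were lower on the median than the rest. Their median fold enrichment was 5.88 at a median height of 41.0 fragments, and the other 233 peaks reached 6.74 and 57.0. All 20 peaks with a fold enrichment of at least 20 lay outside the main TSS windows. Over all protein-coding genes such peaks were 3.04% of those near a gene TSS and 6.83% of the others. With only 10 peaks near a main TSS, their absence there does not set these genes apart. Over all protein-coding genes the same comparison gave medians of 5.31 near a TSS and 6.14 elsewhere, which is the same order.

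**Figure D3:**
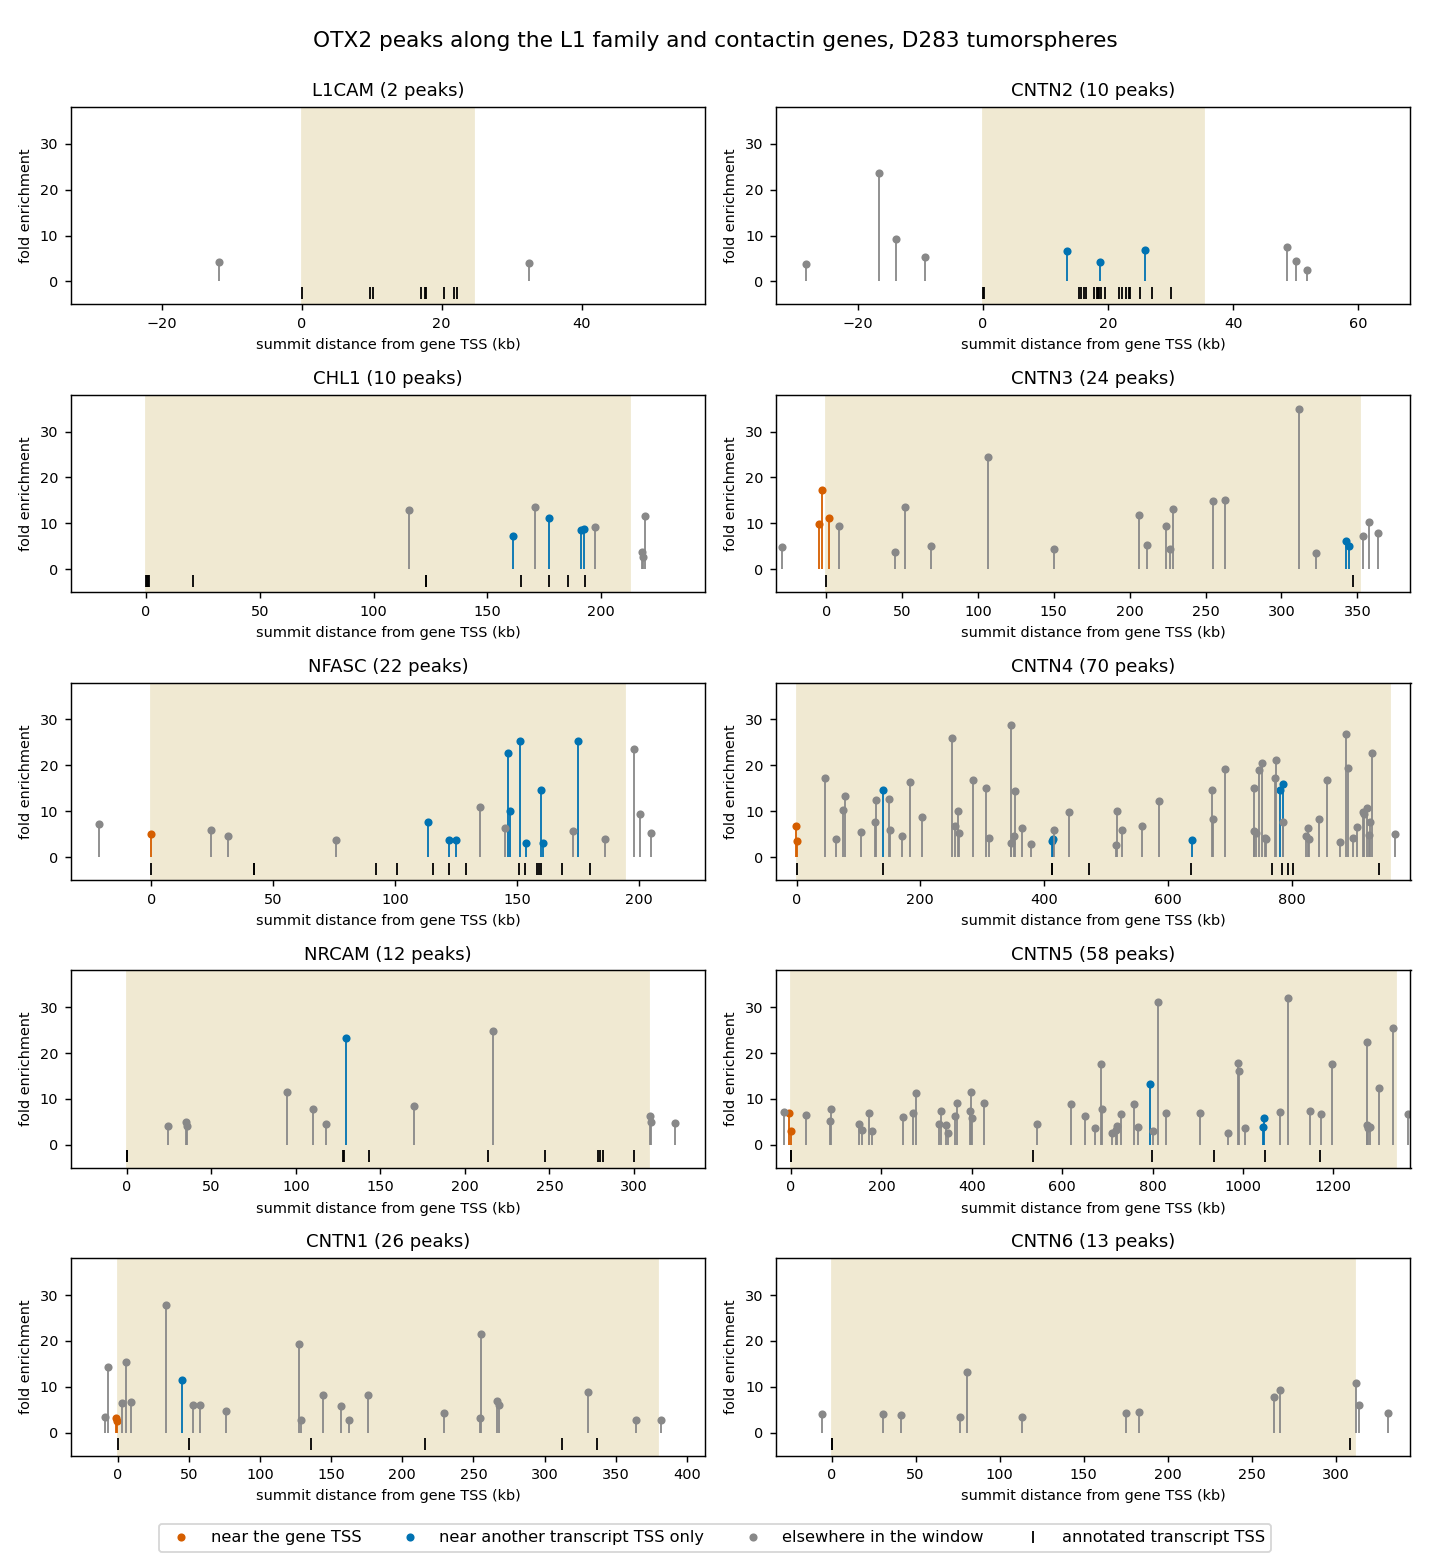
Fold enrichment of each peak against the distance of its summit from the gene TSS in kb, 1 panel per gene, with the gene record shaded and every annotated transcript TSS marked by a tick. NFASC and CHL1 show their peaks in the later part of the gene, while the peaks of CNTN4 and CNTN5 are spread over the whole record.

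L1CAM, the founding member of its family and a partner of neuropilin in semaphorin responses, had the fewest peaks. Its record, chrX:153861514-153886173 on the minus strand, held none. The window held 2 peaks, of 28 and 26 fragments, with fold enrichments of 4.33 and 4.02. The stronger lay upstream of L1CAM and within the start window of the neighbouring gene AVPR2, a vasopressin receptor gene. Neither lay near any of the 15 annotated L1CAM starts.

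CHL1, the close homologue of L1 that acts in neuronal migration, was bound in its later part. The record spans chr3:196763-409417 and its first 115 kb, or 54.3% of its length, held no peak, although the main start lies there. The 7 peaks inside the gene were all in its second part by length, with 3 more downstream. The highest fold enrichment was 13.6 in intron 15, from 91 fragments, and the tallest peak had 142 fragments in intron 19 with a fold enrichment of 8.78. That tallest peak lay 361 bp upstream of the start of transcript CHL1-206, a coding model whose 5′ end is incomplete in the annotation. A peak with a fold enrichment of 11.1 lay 44 bp inside CHL1-211, a transcript annotated without a protein product.

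NFASC encodes neurofascin, which organises the axon initial segment and the nodes of Ranvier and is made in neuronal and glial isoforms. It held the tallest peak of all 10 genes. This peak, chr1:204979601-204980478 in intron 19, had 428 fragments and a fold enrichment of 25.3. It lay 661 bp downstream of the start of NFASC-212, a transcript annotated without a protein product, and 1807 bp upstream of the start shared by NFASC-208 and NFASC-211, whose coding model has an incomplete 5′ end. A second peak with a fold enrichment of 25.3 lay in intron 27 with 218 fragments, and one in intron 14 reached 22.6 with 188. Of the 17 peaks inside the gene, 14 lay in its later portion, past the midpoint of the record. The peak at the main promoter, printed above, was much lower, at 32 fragments and a fold enrichment of 4.92. Its summit lay 74 bp upstream of the start.

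NRCAM, which joins neurofascin at the nodes and steers growth cones, had no peak near its main start, the nearest summit being 24.5 kb into intron 1. Its record spans chr7:108147623-108456717 on the minus strand. A pair of peaks stood above the other 10, at fold enrichments of 24.8 and 23.2 with 167 and 156 fragments, while the next reached 11.5. The first lay over exon 4, at chr7:108239684-108240732. The second, chr7:108326793-108327461 in intron 2, lay 1396 bp downstream of the start of the coding transcript NRCAM-209 and 1563 bp downstream of that of NRCAM-211, the alternative promoter printed above. The local input was at its floor for 9 of the 12 peaks, and the median over chromosome 7 was also 3.99, so these folds rest on the genome-wide input level.

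CNTN1, which pairs with contactin-associated protein at the paranodal junction, had 26 peaks, of which 14 lay in intron 1. Its record spans chr12:40692439-41072415. The 2 peaks near the main TSS were among its weakest, with 30 and 23 fragments and fold enrichments of 3.29 and 2.56. Just outside that window, 7.13 kb upstream of the TSS, lay its tallest peak, with 292 fragments and a fold enrichment of 14.4 over a raised local input of 14.0. The highest fold enrichment, 27.9 from 205 fragments, lay 34.2 kb into intron 1. A peak of 140 fragments with a fold enrichment of 11.5 lay 4654 bp upstream of the alternative coding start of CNTN1-205.

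CNTN2, known as TAG-1 or axonin and present on outgrowing axons and at juxtaparanodes, lies next to NFASC on chromosome 1 (chr1:205042937-205078289). The extended windows of the neighbours overlap, and 4 peaks were counted for both genes, 1 of them inside NFASC in intron 29 and 3 between the genes. The shared peaks included the strongest peak of CNTN2, chr1:205026142-205026656, with 255 fragments and a fold enrichment of 23.6, which lay 16.5 kb upstream of CNTN2 and just past the end of NFASC. The data do not assign it to either gene. Without the 4 shared peaks CNTN2 kept 6, and their highest fold enrichment was 7.41. No peak lay near the main TSS, and the 3 peaks inside the gene fell in the windows of 18 closely spaced alternative starts, most of them of transcripts annotated without a protein product.

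CNTN3, an adhesion molecule of the brain for which a single coding start is annotated, had the strongest binding near a main TSS. Its record spans chr3:74262568-74614659 on the minus strand. A peak 2996 bp upstream of the TSS had 153 fragments and a fold enrichment of 17.2. It was flanked by a peak 1518 bp downstream, at 74 fragments and a fold of 11.1, and one 4822 bp upstream, with 66 fragments and 9.93. None of the 3 overlapped the RefSeq promoter itself. The highest fold enrichment among all 10 genes, 35.0 from 252 fragments, was in intron 13 of CNTN3 at chr3:74302963-74303728.

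CNTN4, a contactin with a role in olfactory axon guidance, held the most peaks, 70 over a record of 959 kb (chr3:2098813-3057959). Of these, 67 lay in introns, and 28 had a fold enrichment of at least 10, against 72 over all 10 genes. The highest fold enrichment was 28.7 in intron 3 and the tallest peak had 336 fragments in intron 15. At the main promoter the peak had 45 fragments and a fold enrichment of 6.84, with its summit 259 bp upstream. Binding at the alternative coding start of CNTN4-202 was stronger, with 278 fragments and a fold enrichment of 14.7 at 469 bp inside the transcript. The local input under that peak was 13.0, above the median of 5.00 for all peaks.

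CNTN5, a contactin of the auditory pathway, is the longest of the genes at 1340 kb (chr11:99020949-100358885), and its 58 peaks gave a lower density than those of CNTN4. The Poisson intervals, 31.5 to 53.6 and 53.5 to 86.8 peaks per Mb, touched at their ends. The strongest peak reached 257 fragments and a fold enrichment of 32.0 in intron 13. Another of 218 fragments in intron 4 reached 31.2. The promoter peak was weak, with 37 fragments and a fold enrichment of 3.13. The main TSS window also held a stronger peak 4890 bp upstream of the TSS, with 45 fragments and a fold enrichment of 6.84. A peak with a fold enrichment of 13.3 lay 4432 bp upstream of the alternative coding start of CNTN5-201, 799 kb into the gene.

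CNTN6, a contactin expressed in the cerebellum and a ligand of Notch, had 13 peaks and none near any start. The nearest summit lay 5469 bp upstream of the main TSS, just outside the window. The median fold enrichment was 4.33, and the highest was 13.3, in intron 2 with 89 fragments. Its tallest peak, with 189 fragments in intron 12, had a fold enrichment of 7.78 over a local input of 17.0, the highest under any of the 243 peaks. The record spans chr3:1092658-1404217.

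**Figure D4:**
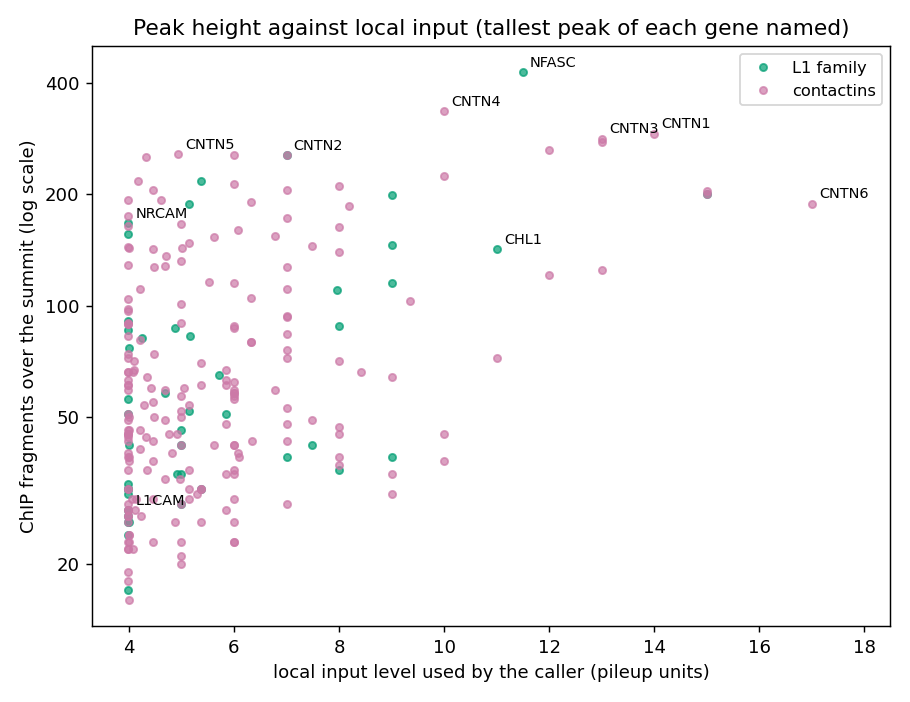
ChIP fragments over the summit on a log scale against the local input level in pileup units, for each peak of the L1 family and the contactins, with the tallest peak of each gene named. NFASC reaches 428 fragments at an input of 11.5, and the tallest CNTN6 peak, with 189 fragments, lies at the highest input, 17.0.

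Over the 10 members, transcript starts within 100 bp of each other were merged into 95 groups, and 47 of these had a peak in their window. The share of such groups was 45.7% over all protein-coding genes and 44.0% over those of at least 100 kb. Of 85 groups away from the main start, 42 had a peak, against 42.3% and 40.7%. Of 26 such groups that belong to coding transcripts with a complete 5′ end, 7 had one, a lower share than the 58.0% over all genes and 55.8% over long genes, which was not tested. These 7 were in NRCAM, CNTN1, CNTN4 and CNTN5, with 1 of them only 192 bp from the main CNTN5 start, while the alternative coding starts with a peak in CHL1, NFASC and CNTN2 belonged to models with an incomplete 5′ end. One peak often served several starts, so these counts are not independent.

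The partners of these molecules were described in the same way, from a list of 20 genes for contactin-associated proteins, receptor phosphatases, ankyrins, membrane linkers, matrix ligands and guidance receptors. All 20 had a peak in the window, against 90.8% of all genes, and 12 had one near the main TSS, against 57.2%. A peak near any start was found for 18, against 66.6% of all genes and 82.9% of long ones. Their median of 59.1 peaks per Mb compares with 49.9 for the 10 adhesion genes, 51.0 over all genes and 54.6 over long ones. The quartiles over long genes were 33.1 and 80.1, and the difference was not tested. EZR, for the actin linker ezrin, had the most with 96.8 peaks per Mb. PTPRZ1, for a receptor phosphatase that binds contactin, had the fewest with 16.1.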

How the data were processed

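DNA bound by OTX2 was sequenced from D283 tumorspheres in 1 ChIP and 1 input library. Per the submitters' processing notes, the authors used Bowtie2 2.2.4 with GRCh38 and MACS2 2.1.0.20140616 for peak calling. The header of the peak list records a q-value cutoff of 0.05 and 1 fragment kept per position. The paper reports that peaks at blacklisted genome locations were masked, which could not be traced in the list. The deposited pileup is a signal, the scaled fragment coverage at the summit. The deposited fold enrichment is a ratio to the local input, and a deposited −log10 q-value is given for each peak. In paired-end mode each ChIP fragment added 0.735 to the pileup, and 100% of pileups were whole fragments within 0.02. The total of 84980793 ChIP fragments exceeded that of 32292980 input fragments, so the input library was the shallower of the pair.

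Gene, exon and transcript positions were the GRCh38 positions recorded in GENCODE release 44. The genome sequence used here is of another build, so no sequence was read by coordinate. Peaks were counted with Python 3.11.15, pandas 2.3.3, numpy 2.4.6 and scipy 1.17.1, figures were drawn with matplotlib 3.10.9, and counting was tested on simulated peaks. Transcript starts within 100 bp were merged. Promoter shares were taken over promoters of protein-coding genes, a choice made after seeing the data. All 10 members are named, each with its peak of highest fold enrichment, and so are the partners with the most and fewest peaks per Mb. Tallest peaks, peaks at alternative starts and peaks nearest the TSS are described for some genes only. The peaks listed at alternative starts are therefore not the full set. The members and lists were chosen with earlier results of these data known. Other windows, thresholds and gene records were tried.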

Additional observations from a re-analysis of the deposited data

How the results depend on the processing

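Of 38 alternative values of the counts and densities, 34 stayed within 1.5 times the reported count or within the reported Poisson interval, and 4 did not. All 4 came from keeping only peaks with a fold enrichment of at least 5, which removes peaks by construction. It left 160 peaks and 34.2 peaks per Mb. It left 3 genes with a peak near the main TSS, because the peaks of NFASC and CNTN1 there are weaker, and raised the genes with a peak at an alternative start only to 5. The shares and medians over all protein-coding genes were not recomputed with this filter. These values therefore cannot be set against the shares and medians given above. RefSeq gene records, transcripts with a complete 5′ end, and leaving out CNTN4 or both L1CAM and NRCAM were chosen after seeing the data. So was leaving out the CNTN2 peaks shared with NFASC, which gave 62.9 peaks per Mb for CNTN2 in place of 105. That value kept the whole CNTN2 window as its length, including the shared stretch. Leaving out CNTN4 gave 47.3 peaks per Mb and leaving out L1CAM and NRCAM gave 54.2. No paired analysis was possible because each group has 1 library. With 1 ChIP library, peaks that would not recur in another culture could not be recognised, and intervals cover counting error only.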
